A study of Mus musculus with 4 samples.

Results

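The 9 genes Zbtb46, Batf3, Batf, Id2, Nfil3, Spi1, Cebpa, Cebpb and Klf4, which encode transcription factors and a transcription factor inhibitor of dendritic and myeloid cell identity, were followed in dendritic cells that lack the Golgi membrane protein GOLPH2. They were taken by gene symbol, and 9 of 9 were present in each of 2 deposited tables, which listed 15310 genes for stimulated and 15394 genes for unstimulated cells. The cultures were bone marrow-derived dendritic cells of GOLPH2-/- (KO) and wild-type (WT) C57BL/6 mice aged 8 weeks, read by strand-specific mRNA sequencing. KO and WT cells that received IFN-gamma for 16 h, followed by LPS for 4 h, are called stimulated, and KO and WT cells without these agents unstimulated. There was 1 library in each of these 4 groups, so no ratio has a replicate check, and the number of mice behind a library, the growth factors of the culture and the part of the gene removed are not given in the labels.

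These factors act in layers. Spi1 encodes PU.1, an ETS family factor that opens myeloid enhancers and is needed for macrophages and dendritic cells, and the C/EBP factors work beside it, Cebpa in early granulocyte and monocyte progenitors and Cebpb in mature and inflamed cells. In mice, Nfil3, Id2 and Batf3 are needed for type 1 conventional dendritic cells, the subset that cross-presents antigen, Batf can stand in for Batf3 under inflammation, Zbtb46 marks the conventional dendritic lineage, and Klf4 serves monocytes and part of the type 2 conventional dendritic cells. Bone marrow cultures hold dendritic cells and macrophage-like cells together. In bulk RNA, fewer cells of a type and less RNA per cell cannot be told apart.

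All ratios below are log2 of KO over WT, shifted so that 0 is the ratio at which the authors' deposited p-value is closest to 1. Each ± is a counting standard error (SE), derived from the deposited p-value; it takes in read sampling and nothing else, and where the deposited p-value is at its limit the SE is given as an upper limit ("at most"). Genes with a Benjamini-Hochberg adjusted deposited p under 0.001 over their table are termed called, and such a call sets 1 library against another, not KO mice against WT mice. The targeted gene Golm1 stood at 25.01% of the WT level in stimulated and 23.5% in unstimulated KO cells.

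In stimulated cells 6 of the 9 genes were called, 5 higher (Batf3, Spi1, Nfil3, Cebpb and Id2) and 1 lower (Klf4) in the KO library. In unstimulated cells 3 were called, Batf3 and Spi1 higher and Cebpb lower. Bonferroni adjustment removed the stimulated calls of Nfil3, Cebpb and Id2 and the unstimulated call of Spi1. Over all genes the share called was 11.9% in stimulated and 8.96% in unstimulated cells. By direction, 5.36% were higher and 6.54% lower in stimulated cells, and 4.7% and 4.27% in unstimulated cells. The 9 genes are read more deeply than most. Among genes at least as precise as the least precise of them, 25.4% were called in stimulated cells (11.5% higher and 13.9% lower) and 17.6% in unstimulated cells (9.04% higher and 8.57% lower). The median ratio of the 9 genes was 0.07 in stimulated and 0.01 in unstimulated cells, against 0.01 and 0.00 over all genes. By size, Batf3 and Klf4 reached 1.2-fold in stimulated cells and Batf3 alone in unstimulated cells. Among genes of like precision 7.23% and 4.86% did so, and over all genes, thinly read ones included, 28.4% and 26%. Klf4 in stimulated cells was the single value past 1.5-fold, a size reached in stimulated cells by 0.7% of genes of like precision and 13.7% of all genes. In unstimulated cells these shares were 0.396% and 13%.

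**Figure D1:**
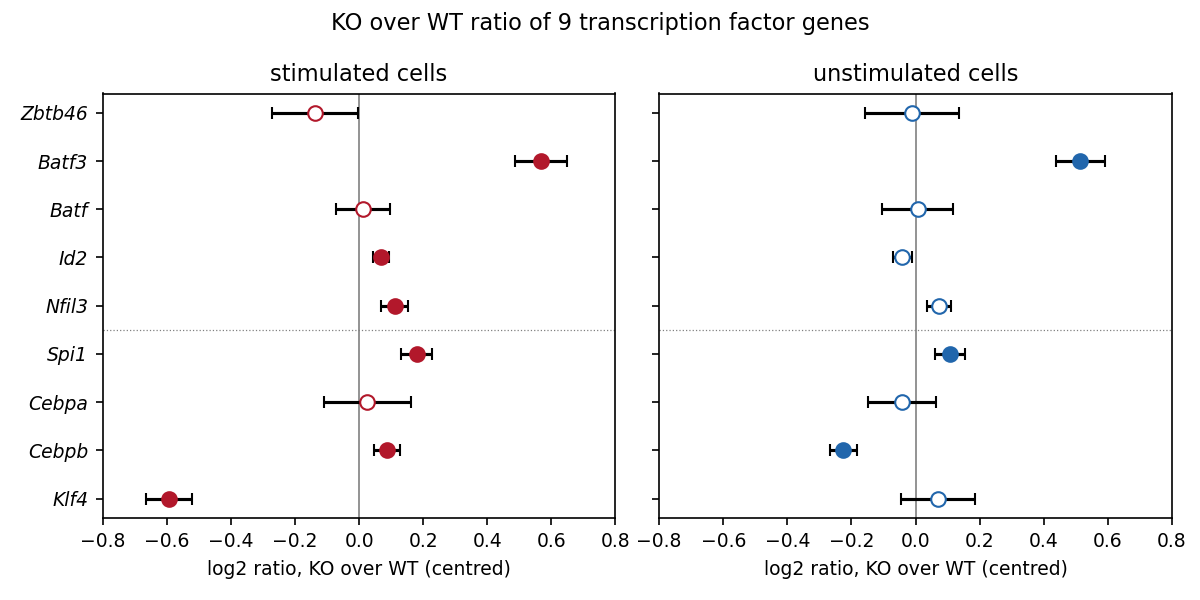
Log2 ratio of KO over WT for the 9 genes in stimulated (left) and unstimulated cells (right), with 95% counting intervals; filled points were called, open points were not, and the dotted line parts the dendritic cell factors (above) from the myeloid and monocyte factors. Batf3 lies at 0.57 and 0.51, while Klf4 lies at −0.59 in stimulated and 0.07 in unstimulated cells.

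Batf3 (GRCm38 chromosome 1, 191097847 to 191108945, plus strand) encodes the AP-1 factor on which type 1 conventional dendritic cells depend in mice. Its ratio was 0.57 ± 0.041 in stimulated and 0.51 ± 0.039 in unstimulated cells. The KO library thus held 148% of the WT level after stimulation (95% counting interval 140% to 157%) and 143% without it (135% to 151%). The 2 intervals overlapped, and the ratios differed by 0.05 ± 0.057. Of precisely read genes, those with at most the counting error that 50 reads in each library would give, 0.855% were at or above the Batf3 ratio in stimulated and 1.38% in unstimulated cells. Batf3 was marked as differentially expressed in the authors' deposited table for unstimulated cells, at a deposited ratio of 0.71. It was not marked in the authors' deposited table for stimulated cells, at 0.53, which lies under 1.5-fold (0.58). The deposited ratios are not centred, and after centring the stimulated ratio was the larger one.

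Batf (chromosome 12, 85686669 to 85709087, plus strand), the AP-1 factor most like Batf3, stood near 0 in both states. Its ratio was 0.01 ± 0.043 in stimulated and 0.01 ± 0.057 in unstimulated cells, and neither was called. The 95% counting intervals reached from 95.05% to 107% of the WT level after stimulation and from 93.0% to 109% without it. Batf and Batf3 thus differed from each other in both comparisons, with intervals that did not overlap.

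Nfil3 (chromosome 13, 52967209 to 52981073, minus strand) encodes a basic leucine zipper factor that acts early in the mouse type 1 dendritic lineage. It was called higher in stimulated cells at 0.11 ± 0.021, and was at 0.07 ± 0.019 in unstimulated cells, where its adjusted p of 0.00147 (authors' deposited p-values, Benjamini-Hochberg) missed the threshold. Both ratios were within 1.1-fold of WT, since the KO library held 108% and 105% of the WT level. Id2 (chromosome 12, 25093799 to 25097140, minus strand) encodes an inhibitor that binds E proteins and keeps them from DNA. It was called higher in stimulated cells at 0.07 ± 0.013 and was at −0.04 ± 0.015 in unstimulated cells, not called. Id2 had the smallest counting error of the 9 genes, that of 25638 reads per library in stimulated cells, so that a KO level of 105% of WT was called. At this size 64.0% of precisely read genes lay as far from 0 as Id2 did, in one direction or the other.

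Zbtb46 (chromosome 2, 181387762 to 181459426, minus strand) encodes the zinc finger factor used to mark conventional dendritic cells. It was at −0.14 ± 0.068 in stimulated and −0.01 ± 0.075 in unstimulated cells, called in neither. After stimulation the KO level was 91.0% of WT with a 95% counting interval from 82.9% to 99.9%, and the adjusted p was 0.154 (authors' deposited p-values, Benjamini-Hochberg). Zbtb46 had the largest counting error of the 9 genes in unstimulated cells, where the interval reached from 89.7% to 110% of the WT level.

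Spi1 (chromosome 2, 91082390 to 91115756, plus strand) was called higher in both states. Its ratio was 0.18 ± 0.025 in stimulated and 0.11 ± 0.024 in unstimulated cells, or 113% and 108% of the WT level. Such calls in the same direction in both states were made for Batf3 and Spi1 among the 9 genes. They were made for 5.19% of the 14823 genes present in both tables, thinly read ones included. Cebpa (chromosome 7, 35119293 to 35121928, plus strand) was called in neither state, with 0.03 ± 0.070 in stimulated and −0.04 ± 0.054 in unstimulated cells.

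Cebpb (chromosome 2, 167688915 to 167690418, plus strand), a gene without introns that inflammatory signals switch on in macrophages, was called in opposite directions. It was higher in the stimulated KO library at 0.09 ± 0.020 and lower in the unstimulated KO library at −0.22 ± 0.021, which are 106% and 85.6% of the WT level. The 95% counting intervals, 103% to 109% after stimulation and 83.1% to 88.1% without it, did not overlap. Under Bonferroni adjustment the unstimulated call was left. Calls in opposite directions were made for 41 genes, 0.277% of those in both tables, thinly read ones included. Cebpb was the only member among the 41 genes. The direction in each state was the same with the ratios as deposited, at 0.05 and −0.03. Cebpb overlaps Tmem189 on the other strand, and no source used here gives the strand setting of the counting, so reads of the 2 genes may not be told apart. Tmem189 was at −0.05 ± 0.021 in stimulated and −0.06 ± 0.018 in unstimulated cells.

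Klf4 (chromosome 4, 55527143 to 55532466, minus strand), a zinc finger factor of monocytes, had the ratio farthest from 0 of the 9 genes in stimulated cells and none that was called in unstimulated cells. It stood at −0.59 ± 0.036 in the stimulated and 0.07 ± 0.059 in the unstimulated comparison. The stimulated KO library held 66.3% of the WT level (95% counting interval 63.1% to 69.7%), against 105% (96.9% to 114%) in the unstimulated one. Of precisely read genes 1.86% lay as far from 0 as Klf4 in stimulated cells. The authors' deposited table of stimulated cells marked Klf4 as differentially expressed, at a deposited ratio of −0.63.

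The 250 bases before the start of Klf4 and Cebpb are shown because these are the members whose centred ratio differed most between the states; with the ratios as deposited, the difference of Cebpb (0.08) was the smallest of the 9. They come from RefSeq (build GRCm38.p6), are written 5′ to 3′ along the strand of the gene, and lie in no annotated exon. The bases that follow the window were found in a GENCODE transcript for Cebpb but not for Klf4. The Klf4 window, from 55532476, does not adjoin the GENCODE gene, which ends at 55532466, so the 2 sources place its start differently. Capitals mark matches, on either strand, to the cAMP response half-site with the letters TGACG and to the GC box with the letters GGGCGG, to which Sp and Kruppel-like factors bind.
Klf4, chr4:55532476-55532725, minus strand: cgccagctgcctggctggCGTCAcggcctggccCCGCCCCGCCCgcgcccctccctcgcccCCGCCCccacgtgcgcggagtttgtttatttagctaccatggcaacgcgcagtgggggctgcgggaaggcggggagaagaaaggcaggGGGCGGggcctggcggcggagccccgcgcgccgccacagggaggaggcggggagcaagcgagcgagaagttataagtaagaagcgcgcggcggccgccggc
Cebpb, chr2:167688665-167688914, plus strand: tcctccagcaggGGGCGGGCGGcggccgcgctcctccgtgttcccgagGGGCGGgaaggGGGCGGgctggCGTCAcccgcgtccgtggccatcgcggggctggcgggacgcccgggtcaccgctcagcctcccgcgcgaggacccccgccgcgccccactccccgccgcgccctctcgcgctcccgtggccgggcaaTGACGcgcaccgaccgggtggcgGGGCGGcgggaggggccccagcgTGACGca
Klf4 had 1 match to the half-site and 4 to the GC box, and Cebpb had 3 and 5. In each gene 1 pair of GC boxes overlapped, by 1 base in Klf4 and by 2 bases in Cebpb. Of 27025 promoter windows of this length, 17.9% held the half-site and 32.9% the GC box. Further motifs were searched on both strands, and neither window held any of them. These were the ETS core GAGGAA, found in 23.1% of all windows, and the C/EBP motif TTGCNNAA, found in 9.55%. The AP-1 motif TGANTCA stood in 6.87% and the STAT motif TTCNNNGAA in 7.18% of windows. The core of the interferon-stimulated response element, TTTCNNTTT, stood in 9.53% and the NF-kB motif GGANTTTCC in 1.05%. The KLF motif CCACACCC stood in 3.19% and the box CCAAT in 34.5%. A match is a run of letters and no measured binding site.

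Between the states the KO over WT ratio of Klf4 differed by −0.66 ± 0.070 and that of Cebpb by 0.31 ± 0.029 (stimulated minus unstimulated). Id2 differed by 0.11 ± 0.020. These 3 of the 9 differences exceeded 3 counting errors, at 9.52, 10.6 and 5.57 of them, and 15.9% of genes of like precision did so too. With the ratios as deposited, Klf4 differed by −0.89, Cebpb by 0.08 ± 0.029, which is under 3 counting errors, and Id2 in the other direction, by −0.12. The differences of the other 6 genes lay between −0.13 for Zbtb46 and 0.07 for Spi1. Over the 10986 genes read precisely in both tables, the central 95% of differences reached from −0.44 to 0.34. Klf4 lay outside this range and the other 8 genes inside it. Over the 6051 genes at least as precise as the least precise member, the range was narrower, from −0.28 to 0.22. Cebpb as well as Klf4 lay outside that narrower range. Of the 10986 genes, 1.02% differed by as much as Klf4, 8.43% by as much as Cebpb and 42.6% by as much as Id2, in either direction. With 1 library per group the difference between states has no test.

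**Figure D2:**
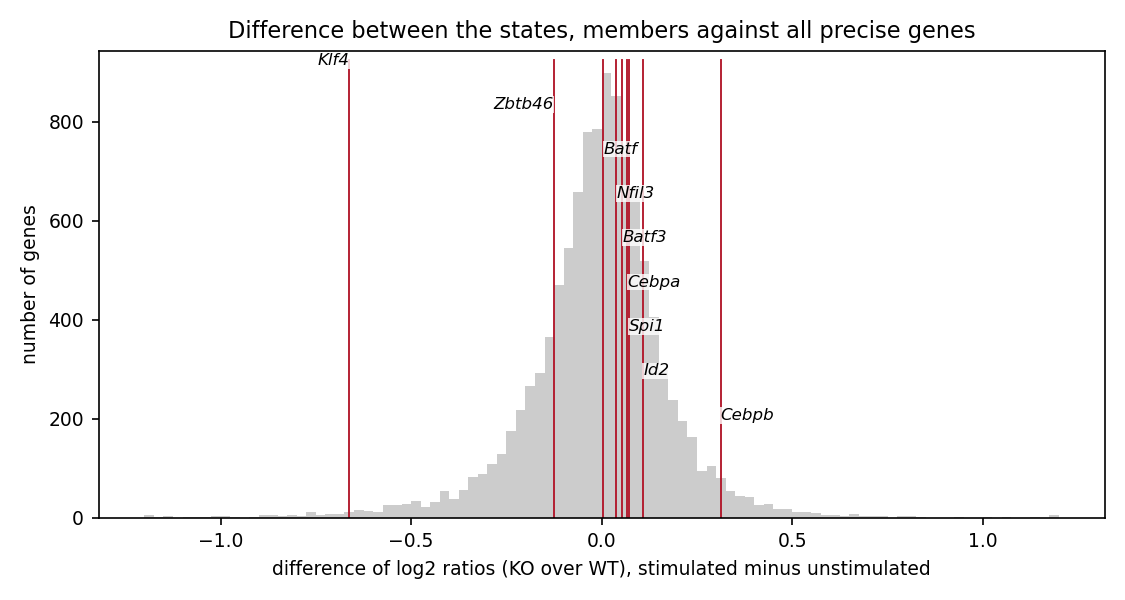
Histogram of the difference in log2 ratio (KO over WT), stimulated minus unstimulated, over 10986 precisely read genes (number of genes on the y axis), with a red line for each of the 9 genes; 10 genes beyond 1.2 are counted in the end bars. Klf4 (−0.66) stands in the lower tail and Cebpb (0.31) on the upper side, while the other lines lie near the centre.

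Taken in order, Batf3 led in both states, and the gap to Spi1, next in line, was 0.39 ± 0.048 in stimulated and 0.41 ± 0.046 in unstimulated cells. In stimulated cells Spi1 was followed by Nfil3 at a gap of 2.10 counting errors. Nfil3, Cebpb, Id2, Cebpa, Batf and Zbtb46 then followed without any neighbouring pair more than 2 counting errors apart. Klf4 came last, 0.46 ± 0.078 under Zbtb46. In unstimulated cells the 7 genes from Spi1 to Cebpa did not part from their neighbours by 2 counting errors, and Cebpb came last, 0.18 ± 0.058 under Cebpa.

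**Figure D3:**
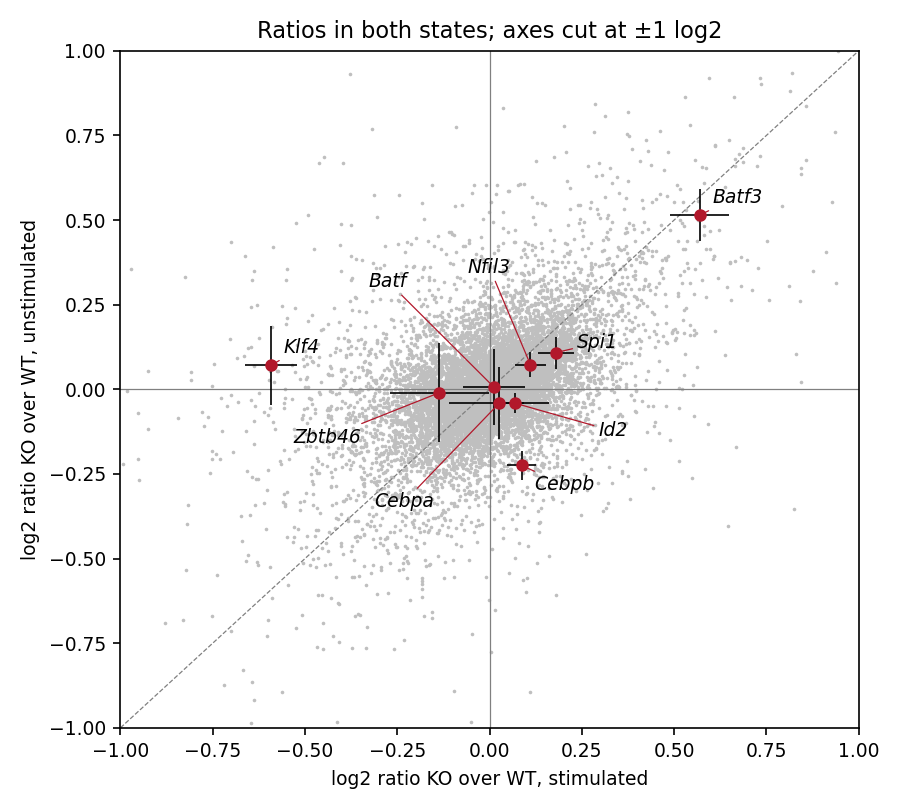
Log2 ratio of KO over WT in stimulated (x axis) and unstimulated cells (y axis) for 10986 precisely read genes (grey) and the 9 genes (red, with 95% counting intervals); 33 genes outside the axes are not drawn. Batf3 (0.57 and 0.51) lies near the dashed line of equal ratios, and Klf4 (−0.59 and 0.07) and Cebpb (0.09 and −0.22) lie away from it.

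No group was repeated, so the 2 states, which are different treatments, stood in as repeats of the genotype comparison. The mean ratio was tested with limma over these 10986 genes. The error of this test combines a gene's own difference between states with the spread over all genes fitted. Its p-values therefore measure agreement between the 2 treatments, not spread between mice or cultures. None of the 9 genes passed an adjusted p of 0.05, and 1, Batf3, had an unadjusted p under 0.05. In all 2 of the 10986 genes passed (0.0182%), so this test with 1 residual degree of freedom calls little. Batf3 had a mean of 0.54 ± 0.055 with an adjusted p of 0.0809 (limma), higher in KO in 2 of 2 states. Its adjusted p was 4.89e-05 when limma let the variance follow the counting error (8.65% of genes passed), 0.0222 when only genes with the precision of 200 reads entered (2.47% passed), and 0.442 without a precision filter. Spi1 had a mean of 0.14 ± 0.056 with an adjusted p of 0.292 (limma), higher in 2 of 2 states, and Klf4 one of −0.26 ± 0.17 with an adjusted p of 0.462 (limma), lower in 1 of 2. The labels do not say whether 1 animal supplied the cells of both states.

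Related factors were read from lists of the same families and lineages, of which 7 were drawn up. Of 13 other Kruppel-like factors in the stimulated and 14 in the unstimulated table, 0 were called. Klf6, an abundant member with a known role in macrophages, was at 0.01 ± 0.016 in stimulated and −0.02 ± 0.017 in unstimulated cells, a small counting error beside the Klf4 ratio. Klf13 was at −0.14 ± 0.043 and −0.04 ± 0.038, and Klf10 at 0.15 ± 0.045 and 0.13 ± 0.039. Klf1, Klf2 and Klf12 had counting errors larger than that of 50 reads in stimulated cells.

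Of 5 genes listed as other C/EBP family members, with Cebpz taken by its symbol, 2 were called higher in stimulated cells and 1 in unstimulated cells, and 0 lower. Cebpd, induced by inflammatory signals as Cebpb is, was at 0.48 ± 0.12 in stimulated cells, called, and at 0.14 ± 0.099 in unstimulated cells, not called. Ddit3, a stress-induced partner of C/EBP factors, was called in both states at 0.17 ± 0.039 and 0.15 ± 0.034. The 13 other BATF and AP-1 genes had 3 called higher and 1 lower in stimulated cells, and 3 and 2 in unstimulated cells. Jun, a dimer partner of BATF factors, was called higher in both states at 0.14 ± 0.030 and 0.15 ± 0.026. Jund was called higher in stimulated cells at 0.11 ± 0.024 and lower in unstimulated cells at −0.15 ± 0.026, so that it was, as Cebpb was, one of the genes called in opposite directions. Under the ratios as deposited, the unstimulated Jund ratio turns to 0.04.

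Beside Id2, the list of ID proteins and E proteins had 0 of 6 called in stimulated cells and 1 of 5 in unstimulated cells. That gene was Id1, at 0.57 ± 0.098 in unstimulated cells and, not called, 0.48 ± 0.15 in stimulated cells. Id1 was also the gene nearest to Batf3 among 63 precisely read factors of these lists, at a distance of 0.10 log2 over the 2 ratios. Irf8 lay farther off, at a distance of 0.38. With 2 values a gene, this likeness is coarse, and 0.2% of all precisely read genes were as near to Batf3 as Id1 was.

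Among other dendritic cell factors, 2 of 14 were called higher and 3 lower in stimulated cells, and 1 higher and 1 lower in unstimulated cells. Irf8, which Batf3 sustains in mouse type 1 dendritic cells, was called higher in both states at 0.24 ± 0.013 and 0.32 ± 0.017. Zeb2, which Nfil3 represses in mouse dendritic cell progenitors, was called lower in both at −0.10 ± 0.022 and −0.22 ± 0.024. Runx3 was called lower in stimulated cells at −0.14 ± 0.022 and was at −0.05 ± 0.021, not called, in unstimulated cells. Of 13 macrophage and monocyte factors, 1 was called higher and 2 lower in stimulated cells, and 1 higher and 3 lower in unstimulated cells. Nr1h3, which encodes the oxysterol receptor LXR alpha, was called lower in stimulated cells at −0.47 ± 0.10 and was at −0.07 ± 0.11, not called, in unstimulated cells. Egr2 was called higher in stimulated cells at 0.35 ± 0.060 and was at 0.07 ± 0.049, not called, in unstimulated cells. Mitf, a regulator of lysosomal genes, was called lower in both states at −0.31 ± 0.043 and −0.30 ± 0.050. Of 15 other ETS factors, relatives of PU.1, 1 was called higher and 4 lower in stimulated cells, and 1 higher and 2 lower in unstimulated cells. Spic, an ETS factor of red pulp macrophages that is on both lists, was called lower in unstimulated cells at −1.75 ± 0.37, where it was not precisely read, and was at −0.73 ± 0.27, not called, in stimulated cells. Elk4 was called lower in stimulated cells at −0.43 ± 0.082 and was at −0.09 ± 0.077, not called, in unstimulated cells. Ets2 was called lower in both at −0.19 ± 0.032 and −0.16 ± 0.030, the second of which is 0.03 as deposited, while Spi1 was called higher in both.

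**Figure D4:**
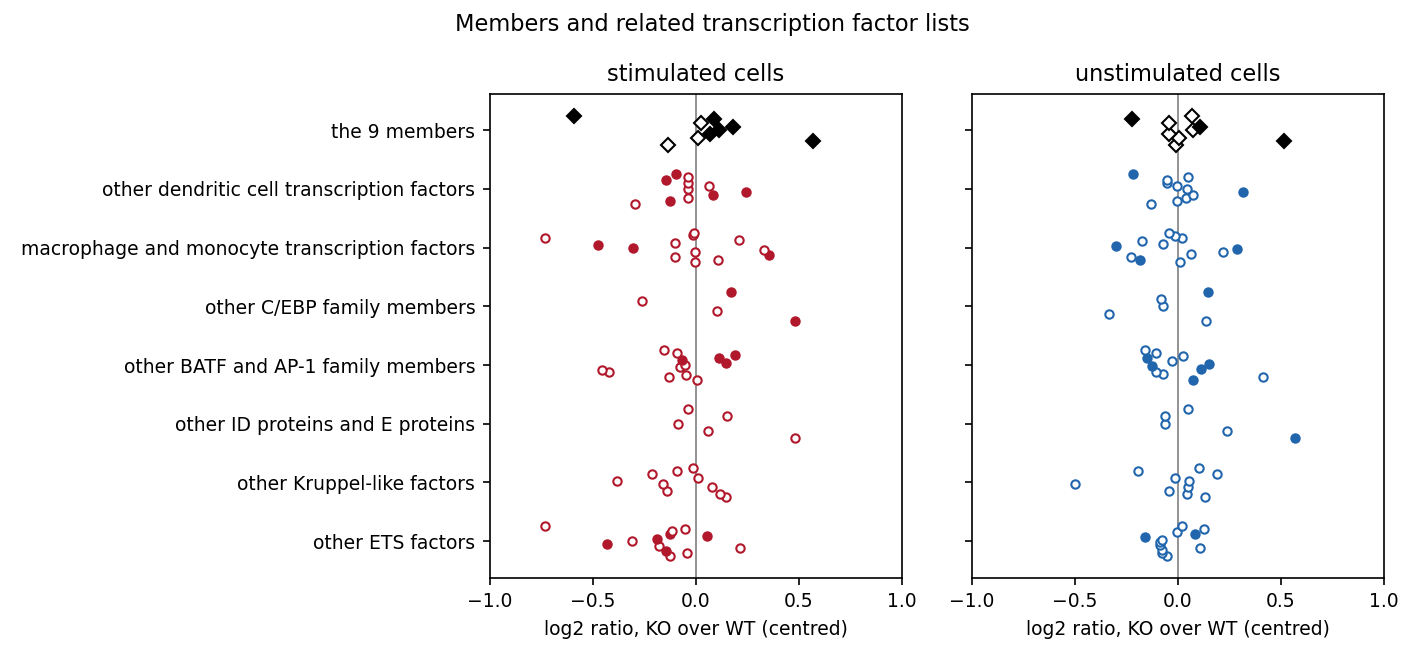
Log2 ratio of KO over WT of the 9 genes (black diamonds) and of the genes of 7 related lists (circles) in stimulated (left) and unstimulated cells (right), for genes read precisely; filled symbols were called. Batf3 (0.57 and 0.51) and, in stimulated cells, Klf4 (−0.59) lie farther out than most factors of the other lists.

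Across lists of marker and target genes linked to these factors, genes were called in both directions. Whether the members act on these genes here was not tested. Of 8 markers of type 1 conventional dendritic cells, the subset that needs Batf3, 5 were precisely read in stimulated and 6 in unstimulated cells. In either state 0 of 8 were called higher, and 2 were called lower in stimulated cells. These were Tlr3, a receptor for double-stranded RNA, at −0.98 ± 0.11, and Wdfy4, needed for cross-presentation, at −0.20 ± 0.052. The chemokine receptor gene Xcr1 was at −0.21 ± 0.12 in stimulated and 0.10 ± 0.20 in unstimulated cells. The lectin gene Clec9a was at 0.00 ± 0.31 and −0.07 ± 0.16, so a ratio of the size of that of Batf3 would lie within 2 counting errors of 0 for Clec9a in stimulated cells. Of 10 general and type 2 dendritic cell markers, 5 were called higher and 1 lower in stimulated cells, and 6 and 1 in unstimulated cells. The lectin gene Clec10a was at 0.86 ± 0.15 and 0.84 ± 0.11, and Itgax, which encodes CD11c, at 0.29 ± 0.017 and 0.32 (SE at most 0.015). Sirpa was the gene called lower in both states, at −0.17 ± 0.013 in stimulated and −0.23 ± 0.015 in unstimulated cells. The dendritic cell markers Itgax, Flt3 and Ccr7 were listed in both tables, and Gcsam and Cd209a in neither.

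Of myeloid receptor and granule genes under PU.1 and C/EBP factors, 4 of 12 were called higher and 4 lower in stimulated cells, and 3 of 13 higher and 3 lower in unstimulated cells. The GM-CSF receptor gene Csf2ra was called higher in both states at 0.25 ± 0.021 and 0.24 ± 0.021. The M-CSF receptor gene Csf1r was called lower in both at −0.15 ± 0.016 and −0.27 ± 0.015. Of 10 macrophage genes that C/EBP beta is known to bind or induce, 2 were called higher and 5 lower in stimulated cells, and 3 higher and 4 lower in unstimulated cells. Arg1, which encodes arginase, was at 0.61 (SE at most 0.023) and 0.56 (SE at most 0.026), and Il6 at −0.22 ± 0.013 and −0.56 ± 0.026. In both states genes of this list were called in both directions. Their link to the Cebpb ratio was not tested.

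Markers of other cells also differed between the libraries. Stromal markers had 6 of 10 called higher and 1 lower in stimulated cells, led by Col3a1 at 6.27 ± 0.40. The gene called lower was Pdgfrb, precisely read, at −0.74 ± 0.15. In unstimulated cells 4 were called higher and 0 lower, with Col3a1 at 3.06 ± 0.58. Of the 10, 7 were precisely read in each state, and Col3a1 was precisely read in neither. Of 11 markers of macrophages and monocytes, 4 were called higher and 2 lower in each state, with C1qb at 0.94 ± 0.15 and 1.0 ± 0.15, C1qc at 0.65 ± 0.15 and 0.74 ± 0.14, and Cd14 at −0.27 (SE at most 0.010) and −0.51 (SE at most 0.024). Lymphocyte markers had 0 of 8 called in stimulated cells and 1 in unstimulated cells, and 1 and 2 of these 8 were precisely read. Neutrophil markers had 0 of 6 and 1 of 9 called, mast cell and basophil markers 1 of 3 and 1 of 5, and plasmacytoid markers 0 of 5 and 1 of 5. Their part in the ratios of Batf3, Klf4 and the other members was not tested, and levels within each library were not analysed here.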

How the data were processed

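Messenger RNA was read in 4 libraries, 1 for each genotype and state, and groups were taken from the sample titles. FastQC 0.10.1, HTSeq 0.6.0 and the build mm10 are named, without their roles, in the submitters' processing notes; no source used here gives the aligner, annotation, scaling or test. The authors deposited a log2 fold change and a −log10 p-value per gene for KO over WT in each state, and no value per library was used, so depth per library is unknown. For 3172 stimulated and 3163 unstimulated genes of low precision (counting error above that of 20 reads), 100% of the deposited folds were ratios of whole numbers with a denominator up to 50, within 1e-06 in relative terms, so the deposited log2 ratios hold no scaling for depth.

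Each deposited log2 ratio was reduced by the ratio at which the deposited p is closest to 1 (−0.036 in stimulated and 0.191 in unstimulated cells). The counting SE is the centred ratio over the normal deviate of the deposited p, which is limited at a −log10 of 150 and 100 as deposited. A counting SE was expressed as reads per library by setting it to that of equal reads in both libraries, and genes at or under the SE of 50 reads (0.289) are called precisely read. Calls used an adjusted p under 0.001. The mean of both states was tested with limma 3.58.1 in R 4.3.3, and other steps used Python 3.11.15 with SciPy 1.17.1. The procedure was tested on simulated data. Named genes were drawn from all members, Golm1, up to 4 called members of each list with the largest ratios, members of a list that are defining or not called, and the 3 factors nearest to Batf3; from a list that the rule fills, the text gives a part, chosen with the values known. Klf6, Klf10, Klf13 and Tmem189 were added for their precision, role or position after their values were seen. The members and lists were chosen with earlier results of these data known. Positions are from GENCODE M21 (GRCm38) and promoter windows from RefSeq; 8 of 9 members had a window. The motifs were chosen after the files were read. A gene that the naming rules select is not reported here by name, though the list counts include it.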

Additional observations from a re-analysis of the deposited data

Results flagged for a closer look

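The KO over WT ratios of 3 genes had opposite signs in the 2 states and were called in at least 1 of them. The differences, stimulated minus unstimulated, were −0.66 for Klf4, 0.31 for Cebpb and 0.11 for Id2 (log2). Cebpb was called in both states, Klf4 and Id2 in stimulated cells. With the ratios as deposited, Id2 had the same sign in both states (0.03 and 0.15). The differences were not tested, as a genotype has a single library in each state.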

How the results depend on the processing

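No paired analysis was possible because each group has 1 library and the titles carry no replicate numbers, and for the same reason no library could be left out. Centring on the median gene kept the direction of every ratio, difference and mean of the members. The calls within each state rest on the deposited p-values, so no choice of centring can change them. In limma, centring on the median gene left 0 members passing, as before, and 0 of the 10986 genes passed, against 2. With the ratios as deposited, the median of the members in unstimulated cells was 0.20 against 0.01, and 7 of 9 differences between states exceeded 3 counting errors, against 3; the difference of Id2 turned to −0.12, that of Cebpb was 0.08 and no longer exceeded 3, and that of Klf4 −0.89. Ratios not called that changed sign as deposited were those of Batf (−0.0246) and Cebpa (−0.0101) in stimulated cells and of Zbtb46 (0.18), Id2 (0.15) and Cebpa (0.15) in unstimulated cells. The means of both states changed sign for Zbtb46 (0.00448), Cebpa (0.0699) and Cebpb (0.00861). Members called were 3 of 9 in stimulated cells under Bonferroni adjustment, against 6, without Cebpb, Id2 and Nfil3, and in unstimulated cells 2, against 3, without Spi1. They were 5 in unstimulated cells at an adjusted p under 0.05, against 3. In limma, 1 member, Batf3, passed with the ratios as deposited (adjusted p 0.00619), with the precision of 200 reads and with the variance trend, against 0. Genes that passed there numbered 173, 230 and 950, against 2. Of the 173 genes that passed with the ratios as deposited, 142 were higher and 31 lower in KO. The deposited ratios hold no scaling for depth, and the Batf3 mean under them was 0.62, against 0.54. The SE in that setting was 0.153 for every member, so a member's own difference between states did not enter. How far the missing scaling and this common SE shaped the Batf3 pass was not tested. The deposited shift of 0.191 also turns other unstimulated ratios named above that lie between −0.19 and 0. With 1 library per group, counting error is a lower limit of the true error.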
